A study of Homo sapiens with 3 samples.

Results

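PKIB and 6 related genes of the protein kinase A system were followed across a lung carcinoma line and its reprogrammed derivatives. The members are the inhibitor genes PKIB, PKIA and PKIG, the catalytic subunit genes PRKACA and PRKACB, and the regulatory subunit genes PRKAR1A and PRKAR2A. They were taken by symbol, 7 of the 18692 gene symbols found in any of the 3 count tables. PKIB was chosen because its level in the derivatives was known to be far above that in the parental line, so the library levels are given as a description, without a test.

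The study profiled single cells of H460, an established line that comes from a human large-cell carcinoma of the lung, and of the mid-term and long-term dR-H460 derivatives, written mdR-H460 and ldR-H460 in its labels. All 3 cultures descend from H460. The labels' protocol for reprogrammed cancer cells places the cells on gelatin with a feeder layer of gamma-irradiated human fibroblasts, in Pluriton medium conditioned by such fibroblasts. Each group was 1 culture and 1 library of barcoded 3' transcript ends, so no replicate stands behind any difference, and a ratio compares 1 library with another. The series title sets the comparison in the context of drug resistance in reprogrammed cancer cells, and the labels give no culture time in words.

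Protein kinase A is held inactive by regulatory subunits, which release the catalytic subunits when cyclic AMP (cAMP) binds to them. Free catalytic subunits phosphorylate many proteins, among them the transcription factor CREB, which acts on genes that carry cAMP response elements. The small heat-stable inhibitors PKIA, PKIB and PKIG bind free catalytic subunits as pseudosubstrates and can carry them out of the nucleus.

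PKIB lies on chromosome 6 at 122471917 to 122726373 on the plus strand (GRCh38, GENCODE 29). Its annotated start faces that of SERINC1, a serine incorporator gene on the minus strand, whose start is at 122471822. The 94 bases between them, chr6:122471823-122471916 on the plus strand of GRCh38.p14 (from RefSeq), are printed because both genes begin at their ends and were compared here. Capitals mark the only TGACG half-site, with which the cAMP response element TGACGTCA begins. The half-site lies on the minus strand, so the printed plus strand reads CGTCA.
PKIB and SERINC1 shared start region: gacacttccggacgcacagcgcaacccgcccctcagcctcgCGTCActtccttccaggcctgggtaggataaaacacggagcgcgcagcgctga
The stretch held 10 CpG dinucleotides. The full element TGACGTCA was in none of 3 RefSeq start windows of PKIB, each from 250 bases before to 50 after a start, and in 1.85% of all 35116 such windows. The TGACG half-site, searched on both strands and also part of the full element, occurred 3, 1 and 0 times in the PKIB windows. It was in 24.6% of all windows. Among the 6 members matched in the promoter table, the full element was found in 2 overlapping windows of PRKAR1A, with starts at 68512379 and 68512430 on chromosome 17. These matches describe letters in a window, and 3' end counts do not show which start a transcript used.

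The libraries of H460, mdR-H460 and ldR-H460 held 4531, 5151 and 4956 cells and 66192074, 66624830 and 60468481 unique molecular identifiers (UMIs), each UMI standing for 1 captured transcript end. The median cell had 11736 to 14685 UMIs. Levels are given as UMIs per 1000000 UMIs of the library (CPM). Barcodes shared between pairs of libraries numbered 24 to 36, and none of the H460 cells with a PKIB UMI had a shared barcode. Of 6 epithelial markers, KRT8, KRT18, KRT19 and KRT7 were well counted in all libraries, EPCAM was at 0.132 to 0.347 CPM and CDH1 at 0. Because irradiated fibroblasts had served as feeder cells, 12 fibroblast markers were summed. They came to 15.2 CPM in H460, 4.22 in mdR-H460 and 5.92 in ldR-H460, with PDGFRA, THY1, FAP and POSTN at 0 in all 3. Of 4 leukocyte markers PTPRC and CD3E were at 0 throughout, LYZ had at most 4 UMIs in a library, and CD68, a lysosomal protein gene, had 37.4 CPM in H460, 26.6 in mdR-H460 and 5.89 in ldR-H460. Of 3 endothelial markers VWF and CDH5 were at 0, and PECAM1 had 3, 35 and 0 UMIs. The part of these markers in the results below was not tested.

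PKIB, the inhibitor that gives the set its name, had 10 UMIs in H460, 1912 in mdR-H460 and 1383 in ldR-H460. Its level was 0.151 CPM (0.0724 to 0.278) in H460, 28.7 (27.4 to 30.0) in mdR-H460 and 22.9 (21.7 to 24.1) in ldR-H460, with 95% intervals that cover counting error only. The order was mdR-H460, ldR-H460, H460, and the intervals of these neighbours did not overlap. The level was 190.0-fold (103 to 397) above H460 in mdR-H460 and 151-fold (82.1 to 316) in ldR-H460. Between the derivatives it was 1.25-fold (1.17 to 1.35) lower in ldR-H460, a ratio of 0.797. Where genes needed 10 CPM in the higher library of a pair, the PKIB ratio ranked 1 of 6402 for mdR-H460 and 2 of 6556 for ldR-H460, both against H460.

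PKIA, another inhibitor of the family (chromosome 8, 78516139 to 78605267, plus strand), ran the other way. It had 237 UMIs in H460, 18 in mdR-H460 and 27 in ldR-H460. Its level was 3.58 CPM (3.14 to 4.07) in H460, 0.270 (0.160 to 0.427) in mdR-H460 and 0.447 (0.294 to 0.650) in ldR-H460. It was 13.3-fold (8.21 to 22.8) lower in mdR-H460 and 8.02-fold (5.37 to 12.4) lower in ldR-H460 than in H460. The derivatives could not be ordered, with a ratio of 1.65 whose interval ran from 0.877 to 3.19.

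PKIG, the third inhibitor (chromosome 20, 44531785 to 44624247, plus strand), was counted in all libraries, with 1067, 914 and 638 UMIs in H460, mdR-H460 and ldR-H460. Its level was 16.1 CPM (15.2 to 17.1), 13.7 (12.8 to 14.6) and 10.6 (9.75 to 11.4). It was highest in H460 and lowest in ldR-H460, and the intervals of the libraries did not overlap. The ratio to H460 was 0.851 (0.778 to 0.931) in mdR-H460, and ldR-H460 was 1.53-fold (1.38 to 1.69) lower. That last value lies at the 1.5-fold line used below, and other scalings and cell filters gave 1.41 to 1.58. For mdR-H460 they gave ratios to H460 of 0.848 to 0.967, the highest with TMM factors and above the counting interval.

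**Figure D1:**
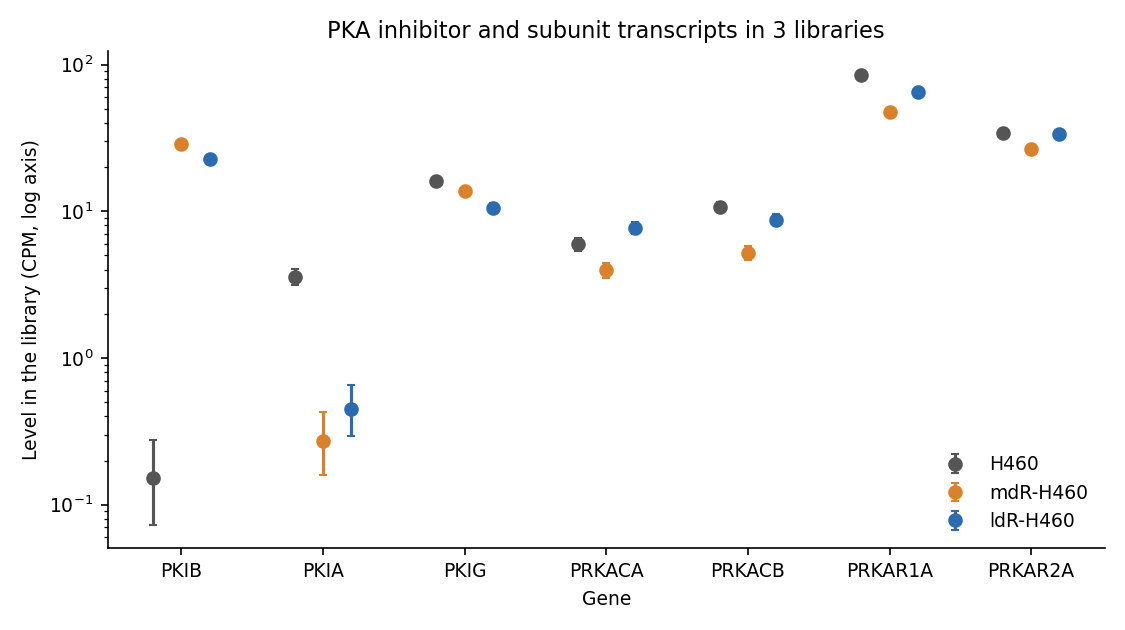
Level of each member in CPM on a log axis, 1 point per library, with exact 95% Poisson intervals for counting error. PKIB stands between 22.9 and 28.7 CPM in the derivatives against 0.151 in H460, PKIA lies lower in both derivatives, and the other 5 members differ far less.

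The gene that gave most inhibitor UMIs was PKIG in the parental line and PKIB in both derivatives. In a 3' assay a transcript gives a UMI at its end whatever its length, so the UMIs were compared between genes without a length term, and any difference in capture between genes remains in the shares. PKIG gave 81.2% of the 1314 inhibitor UMIs of H460, PKIA 18.0% and PKIB 0.761%. In mdR-H460 PKIB gave 67.2% of 2844 inhibitor UMIs, PKIG 32.1% and PKIA 0.633%. In ldR-H460 the shares were nearly the same, 67.5% of 2048 for PKIB, 31.2% for PKIG and 1.32% for PKIA. Summed over the family, inhibitor UMIs per catalytic subunit UMI (PRKACA and PRKACB) numbered 1.19 (1.09 to 1.29) in H460, 4.66 (4.27 to 5.10) in mdR-H460 and 2.06 (1.91 to 2.22) in ldR-H460. Both derivatives thus held more inhibitor transcript ends per catalytic transcript end than H460, and mdR-H460 held the most. PKIB, chosen for its high level in the derivatives, gave most of their inhibitor UMIs, so this order is not a separate result. PKIA and PKIG had 237 and 1067 UMIs beside 1107 catalytic UMIs in H460, and 18 and 914 beside 610 in mdR-H460. In ldR-H460 they had 27 and 638 beside 995, fewer per catalytic UMI than in H460.

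**Figure D2:**
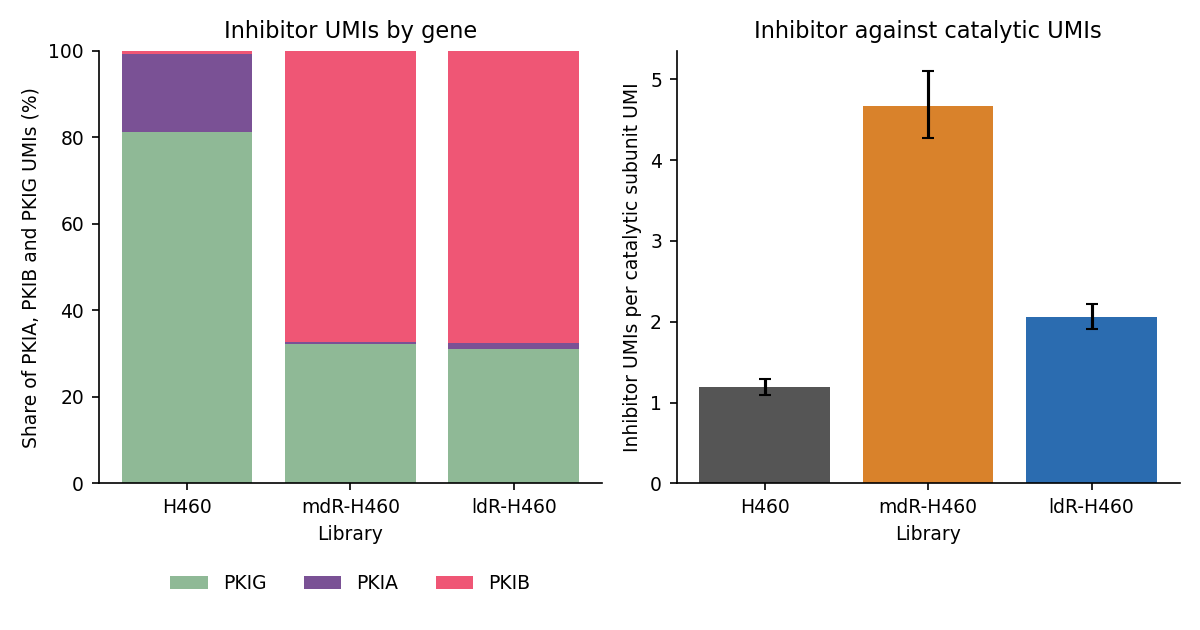
Left, share of the summed PKIA, PKIB and PKIG UMIs that each gene gave, in percent, by library. Right, inhibitor UMIs per catalytic subunit UMI with 95% intervals for counting error. PKIB gives 67.2% and 67.5% of the inhibitor UMIs of the derivatives against 0.761% in H460, and the ratio to catalytic UMIs is 1.19, 4.66 and 2.06.

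The catalytic subunits were both lowest in mdR-H460. PRKACA, the alpha catalytic subunit (chromosome 19, 14091688 to 14118084, minus strand), had 394, 264 and 466 UMIs in H460, mdR-H460 and ldR-H460, or 5.95 CPM (5.38 to 6.57), 3.96 (3.50 to 4.47) and 7.71 (7.02 to 8.44). It was 1.5-fold (1.28 to 1.76) lower in mdR-H460 than in H460, at the line used below, and other settings gave 1.23 to 1.75. In ldR-H460 it was 1.29-fold (1.13 to 1.48) above H460. PRKACB, the beta catalytic subunit (chromosome 1, 84078062 to 84238498, plus strand), had 713, 346 and 529 UMIs, or 10.8 CPM (10.0 to 11.6), 5.19 (4.66 to 5.77) and 8.75 (8.02 to 9.53). It was 2.07-fold (1.82 to 2.37) lower in mdR-H460 than in H460. In ldR-H460 its ratio to H460 was 0.812 (0.724 to 0.910), but 1.20 among cells called G1, from 86 and 183 UMIs. From mdR-H460 to ldR-H460 the ratios were 1.94 (1.67 to 2.27) for PRKACA and 1.68 (1.47 to 1.93) for PRKACB. PRKACB gave 64.4% of the catalytic UMIs in H460, 56.7% in mdR-H460 and 53.2% in ldR-H460.

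The regulatory subunits gave most of the UMIs of the members. PRKAR1A, the type I alpha regulatory subunit (chromosome 17, 68511780 to 68551319, plus strand), had 5614 UMIs in H460, 3169 in mdR-H460 and 3938 in ldR-H460. The levels were 84.8 CPM (82.6 to 87.1), 47.6 (45.9 to 49.3) and 65.1 (63.1 to 67.2), so H460 was highest and mdR-H460 lowest. PRKAR1A was 1.78-fold (1.71 to 1.86) lower in mdR-H460 than in H460, and its ratio in ldR-H460 to H460 was 0.768 (0.737 to 0.800). PRKAR2A, the type II alpha regulatory subunit (chromosome 3, 48744597 to 48847846, minus strand), had 2248, 1762 and 2021 UMIs, or 34.0 CPM (32.6 to 35.4), 26.4 (25.2 to 27.7) and 33.4 (32.0 to 34.9). It had a ratio to H460 of 0.779 (0.731 to 0.829) in mdR-H460. In ldR-H460 the ratio was 0.984 (0.926 to 1.05), so H460 and ldR-H460 were not separated over all cells. Other settings gave 0.795 to 1.07 for ldR-H460. The lowest was in cells called G1, from 180 UMIs in ldR-H460 and 578 in H460. Regulatory UMIs of these 2 genes numbered 7.10 (6.67 to 7.57) per catalytic UMI in H460, 8.08 (7.43 to 8.81) in mdR-H460 and 5.99 (5.60 to 6.41) in ldR-H460. The intervals of H460 and mdR-H460 overlapped.

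Counted at 1.5-fold, 1 of the 7 members was higher in mdR-H460 than in H460 (PKIB) and 4 were lower (PKIA, PRKACA, PRKACB and PRKAR1A). Of 12258 genes that reached 1 CPM in any library, 6.66% were higher and 22.2% lower in that pair. In ldR-H460 against H460, 1 member was higher (PKIB) and 2 were lower (PKIA and PKIG), against 11.6% and 22.1% of 12259 genes. In ldR-H460 against mdR-H460, 3 members had ratios of 1.5 or more (PKIA, PRKACA and PRKACB) and none was lower, against 14.8% and 11.2% of 12243 genes. Of these 3, PKIA had a counting interval that included 1. The median log2 ratio of the 7 members was -0.59, -0.30 and 0.45 in these pairs, and that of all genes -0.16, -0.13 and 0.07. The first 2 pairs share the H460 library. Scaling by TMM factors, which aim at a typical gene, would add 0.18, 0.12 and -0.07 to every log2 ratio.

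Within the derivatives PKIB was counted across many cells rather than in a few. At all UMIs, 1325 of 5151 mdR-H460 cells (25.7%, exact Clopper-Pearson 95% interval 24.5 to 26.9) and 1146 of 4956 ldR-H460 cells (23.1%, 22.0 to 24.3) had a PKIB UMI, against 10 of 4531 H460 cells (0.221%). To remove differences in depth, 5000 UMIs were drawn at random from every cell, which left out 681 shallower cells in H460, 1271 in mdR-H460 and 435 in ldR-H460. The shares were then 12.4% (11.4 to 13.5) of 3880 cells in mdR-H460, 10.7% (9.84 to 11.7) of 4521 in ldR-H460 and 0.0519% (0.00629 to 0.188) of 3850 in H460. The H460 share, from 2 cells at the same depth, is the background against which the others were read. No H460 cell had more than 1 PKIB UMI, while the highest count in a cell was 7 in mdR-H460 and 4 in ldR-H460.

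The spread of PKIB over cells was read at equal depth. There the variance of PKIB UMIs per cell was 1.16 times the mean in mdR-H460 and 1.03 times in ldR-H460, where counts scattered evenly over cells would give 1. By depth of the cell, from under 5000 to 20000 UMIs or more, the PKIB level lay between 25.2 and 29.4 CPM in mdR-H460 and between 17.9 and 23.9 in ldR-H460. The intervals of all depths overlapped in mdR-H460. In ldR-H460 cells of 5000 to 10000 UMIs, at 17.9 CPM (15.3 to 21.0), lay below those of 10000 to 20000, at 23.9 (22.4 to 25.4).

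The other members followed the library levels in their shares of thinned cells. PKIA UMIs were in 1.90% of H460 cells, 0.180% of mdR-H460 cells and 0.265% of ldR-H460 cells. PKIG was in 7.53%, 7.22% and 5.22% of cells, so its share was nearly equal in H460 and mdR-H460. PRKACA was in 3.38%, 1.91% and 3.78%, and PRKACB in 5.61%, 2.45% and 4.22%. PRKAR1A was seen most widely, in 34.9%, 21.5% and 29.1%, and PRKAR2A in 15.7%, 11.9% and 15.3%.

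Cells with and without a PKIB UMI carried the other members about equally often. In mdR-H460, PKIG was in 6.85% (4.76 to 9.48) of 482 PKIB cells and 7.27% of 3398 cells without one. PRKAR1A was in 19.3% (15.9 to 23.1) and 21.8%, and PRKACB in 3.11% (1.75 to 5.08) and 2.35%. PKIA was in none of the 482, with an exact upper limit of 0.762%, and in 0.206% of the others. In ldR-H460, PKIG was in 5.57% (3.7 to 8.0) of 485 PKIB cells and 5.18% of 4036 others, and PRKACA in 2.68% (1.43 to 4.54) and 3.91%. The intervals for PKIB cells included the share of the other cells for every member in both derivatives, so no joint occurrence was detectable at this depth.

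Cells were also clustered on genes that left out the members, which gave 7 clusters, 4 of them holding most derivative cells. In mdR-H460 these were cluster 2, with 2506 cells and led by CDC20, AURKB and UBE2C of mitosis, and cluster 3, with 1715 cells and led by GDF15 and FN1. In ldR-H460 they were cluster 1, with 3116 cells and led by SURF2, GAL and NOP16, and cluster 4, with 1518 cells and led by FN1, C15orf48 and ANKRD1. PKIB stood at 26.0 CPM (24.6 to 27.6) in cluster 1 and 15.1 (13.2 to 17.1) in cluster 4 of ldR-H460, a ratio of 1.73 (1.505 to 1.997), and at equal depth in 12.3% and 7.57% of cells. In mdR-H460 it was 30.1 CPM (28.6 to 31.7) in cluster 2 and 26.3 (23.9 to 28.9) in cluster 3, a ratio of 1.14 (1.03 to 1.27). The order over these clusters was therefore 2, 3, 1 and 4. The intervals overlapped between clusters 2 and 3 and between clusters 3 and 1, and cluster 4 lay below the others. These intervals cover counting error within 1 library.

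PKIG and PRKAR1A ran against PKIB over the same clusters. In ldR-H460 PKIG had 8.86 CPM in cluster 1 and 15.1 in cluster 4, a ratio of 0.586 (0.498 to 0.691), and PRKAR1A had 58.9 and 82.2, a ratio of 0.716 (0.670 to 0.766). PRKAR2A followed PKIB, with 37.2 CPM in cluster 1 and 23.7 in cluster 4, a ratio of 1.57 (1.40 to 1.76). The catalytic subunits were not separated, with ratios of 0.994 (0.807 to 1.23) for PRKACA and 0.878 (0.726 to 1.07) for PRKACB. In mdR-H460 cluster 2 over cluster 3 gave 0.745 for PKIG, 0.688 for PRKAR1A and 1.27 for PRKAR2A, all on the same side of 1 as in ldR-H460. A small cluster 6, led by HSPA6 and DDIT3 of the stress response, held 163 mdR-H460 cells and no ldR-H460 cell. PKIB was at 11.4 CPM (6.05 to 19.4) in its mdR-H460 cells, below clusters 2 and 3, while PRKAR1A was at 188 (164 to 215).

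The clusters differed in cell cycle phase, called from S and G2M gene lists on thinned cells, so PKIB was read within phases. Of phased cells, 4.0% in cluster 1 and 40.9% in cluster 4 of ldR-H460 were called G1. Within G1, S and G2M, PKIB had 26.4, 26.8 and 25.4 CPM in cluster 1 and 13.3, 15.0 and 17.4 in cluster 4. The difference between the ldR-H460 clusters was thus present in each phase. In mdR-H460 the same phases gave 25.9, 29.7 and 30.7 CPM in cluster 2 and 26.0, 26.9 and 28.6 in cluster 3, with overlapping intervals in each phase. Over whole libraries PKIB in G2M cells over G1 cells was 1.21 (1.07 to 1.37) in mdR-H460 and 1.51 (1.25 to 1.84) in ldR-H460.

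**Figure D3:**
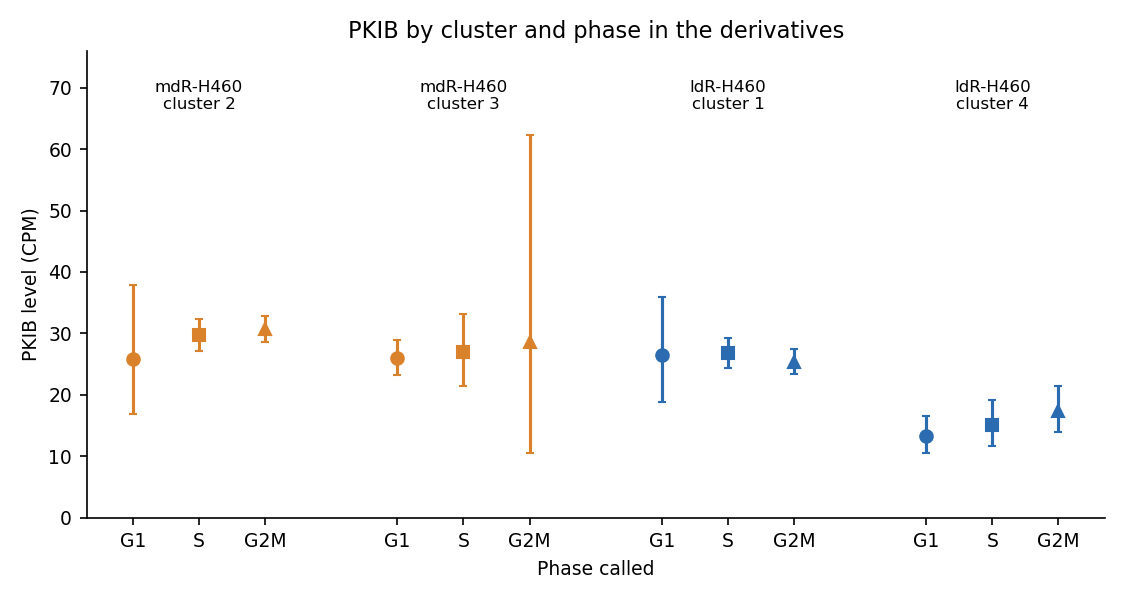
PKIB level in CPM in the cells of each phase, for the 2 main clusters of each derivative, with exact 95% Poisson intervals for counting error. Cluster 4 of ldR-H460 lies at 13.3 to 17.4 CPM in every phase, below cluster 1 at 25.4 to 26.8, while the clusters of mdR-H460 overlap.

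For PKIG, PRKAR1A and PRKAR2A the ratio of G2M to G1 cells had an interval on the same side of 1 in all 3 libraries. PKIG in G2M over G1 was 0.779 in H460, 0.707 in mdR-H460 and 0.770 in ldR-H460. PRKAR1A was 0.735, 0.626 and 0.903, and PRKAR2A was 1.18, 1.29 and 1.45. PRKACA had ratios of 1.26, 1.18 and 1.23 and PKIA of 1.19, 1.33 and 1.56, and all their intervals included 1. PRKACB was 1.21 and 0.923 in H460 and mdR-H460, with intervals including 1, and 0.668 (0.519 to 0.868) in ldR-H460.

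No gene had a large correlation with PKIB from cell to cell, but sparse PKIB counts keep any correlation low. At 5000 UMIs per cell the variance of PKIB was 1.16 times the mean in mdR-H460 and 1.03 times in ldR-H460. Counting scatter alone gives 1, so these values cannot tell whether a gene moves closely with PKIB. Pearson r was computed on log-transformed UMIs of thinned cells for genes with a UMI in at least 5% of them, which makes it a description of sparse counts from 1 library each. Over 3880 mdR-H460 cells and 5613 genes r ran from -0.0677 for EMP3 to 0.0670 for PPP1R11, and over 4521 ldR-H460 cells and 5767 genes from -0.0790 for RPS2 to 0.0783 for H2AFZ. The highest value thus stood for 0.458% and 0.625% of the variance, counting scatter included, and 14 and 48 genes reached 0.05 in either direction. In mdR-H460 PPP1R11, a phosphatase 1 inhibitor gene, was followed by DLD, PDAP1, FTL, PRELID1, NINJ1, RCL1 and TP53RK. PPP1R11 was in 27.0% of PKIB cells and 20.2% of the others. The lowest values after EMP3 belonged to PKM, DNER and ANXA2.

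In ldR-H460 the highest values belonged to H2AFZ, a histone variant of proliferating cells, then TIMM10, NHP2, PTMA, C1QBP, SRP9, ATP5G3 and NPM3, and the lowest after RPS2 to FN1, MALAT1 and TMSB10. FN1, the fibronectin gene that also led cluster 4, was in 48.0% of PKIB cells and 58.7% of the others. The 100 highest genes of mdR-H460 and of ldR-H460 shared 3, or 3% of each list (PLEKHJ1, PRELID1 and UBE2L3), and the 100 lowest shared 2 (B2M and DNER). PRELID1, a mitochondrial lipid transfer protein gene, had r of 0.0560 in mdR-H460 and 0.0602 in ldR-H460. Of the 20 highest genes, 1 of mdR-H460 and 6 of ldR-H460 were again among the 20 highest at 8000 UMIs per cell, a depth that leaves out more cells. Most of the highest genes were thus not the same at the other depth.

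**Figure D4:**
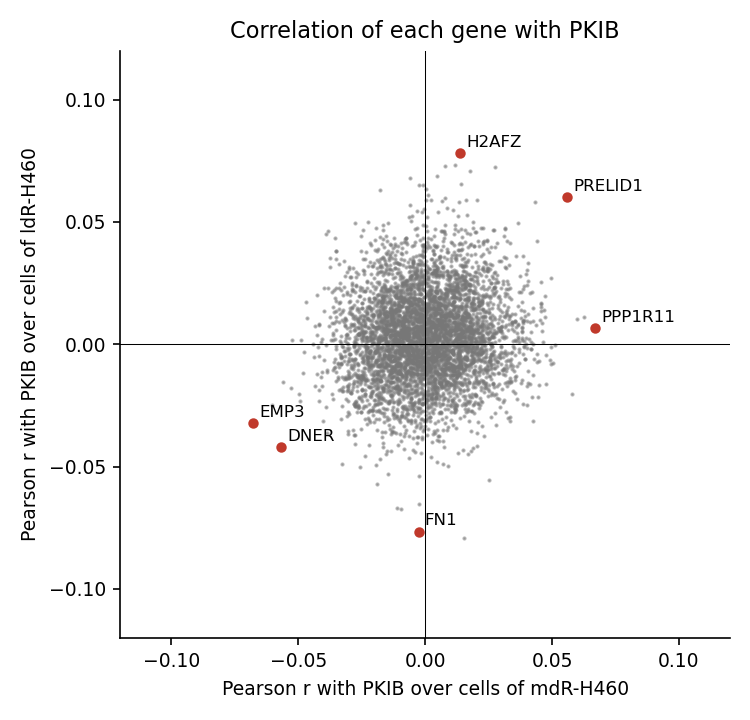
Pearson r of each gene with PKIB over thinned mdR-H460 cells (horizontal axis) and ldR-H460 cells (vertical axis), 1 point per gene. All points lie between -0.0790 and 0.0783 on both axes, and PRELID1 at 0.0560 and 0.0602 is the only gene among the 20 highest of both derivatives.

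The wider cAMP and protein kinase A system was read from 11 gene lists with 116 genes, of which 76 reached 1 CPM in any library. Of these 76, 8 (10.5%) were at least 1.5-fold higher and 29 (38.2%) lower in mdR-H460 than in H460. Among all genes 6.66% and 22.2% were. In ldR-H460 against H460 10 (13.2%) were higher and 27 (35.5%) lower, against 11.6% and 22.1% of all genes. In ldR-H460 against mdR-H460 22 (28.9%) were higher and 10 (13.2%) lower, against 14.8% and 11.2%. Without the members, 7 of 69 were higher and 25 lower, 9 and 25, and 19 and 10 in the same pairs. The median log2 ratio of the 76 genes was -0.39, -0.25 and 0.19, against -0.16, -0.13 and 0.07 for all genes.

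Upstream of the kinase stand receptors, G proteins and the cyclases that make cAMP. GNAS, the stimulatory G protein alpha subunit, had 749 CPM in H460, 461 in mdR-H460 and 311 in ldR-H460. GNAL, its olfactory relative, ran the other way with 1.95, 3.89 and 5.71 CPM. Of 5 measured Gs-coupled receptors, the prostaglandin E receptor gene PTGER4 had 4.68, 0.480 and 0.893 CPM and was 9.75-fold (6.76 to 14.5) lower in mdR-H460 than in H460. VIPR2, a receptor for vasoactive intestinal peptide, had 1.09, 1.62 and 0.595 CPM. Of 5 measured adenylyl cyclases, 4 were lower and none higher in mdR-H460 than in H460, where 22.2% of all genes were lower and 6.66% higher. Among them ADCY9 had 2.39, 0.660 and 1.41 CPM and ADCY7 5.65, 2.75 and 3.94.

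Phosphodiesterases break down cAMP, and 12 of them were measured. In mdR-H460 against H460 none was higher and 5 (41.7%) were lower, against 6.66% and 22.2% of all genes. In ldR-H460 against H460 3 (25.0%) were higher and 3 (25.0%) lower, against 11.6% and 22.1%, so the share of lower genes was close to that of all genes. In ldR-H460 against mdR-H460 6 (50.0%) were higher and 1 (8.33%) lower, against 14.8% and 11.2%. PDE1C had 36.3 CPM in H460, 18.9 in mdR-H460 and 11.1 in ldR-H460. PDE8B had 3.90, 0.555 and 1.70 CPM and was 7.02-fold (4.96 to 10.2) lower in mdR-H460 than in H460.

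Among subunits outside the 7 members, PRKAR2B, the type II beta regulatory subunit, stood out with 0.861 CPM in H460, 1.58 in mdR-H460 and 4.78 in ldR-H460, 5.55-fold (4.17 to 7.51) above H460 in ldR-H460. PRKAR1B had 547, 733 and 521 UMIs, and the related kinase gene PRKX 12.3, 9.11 and 14.0 CPM. Of 9 measured A-kinase anchoring proteins, which tether the regulatory subunits, 2 (22.2%) were lower and none higher in each derivative against H460, the same share as the 22.2% and 22.1% of all genes that were lower in these pairs. AKAP12 had 37.8, 16.8 and 4.17 CPM, 9.08-fold (7.97 to 10.4) lower in ldR-H460 than in H460. AKAP11 had 11.8, 3.95 and 6.14 CPM, and the other 7 lay within 1.5-fold of H460 in both derivatives. Among effectors other than the kinase, the Epac genes RAPGEF4 and RAPGEF3 had 1.33, 0.360 and 0.695 CPM and 0.680, 0.735 and 1.65 CPM, and the Popeye domain gene BVES had 1.27, 0.600 and 0.430.

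CREB target genes, which lie downstream of the kinase, were measured for 19 of 22. In mdR-H460 against H460 3 (15.8%) were higher and 8 (42.1%) lower, against 6.66% and 22.2% of all genes. In ldR-H460 against H460 1 (5.26%) was higher and 10 (52.6%) lower, against 11.6% and 22.1%. In ldR-H460 against mdR-H460 2 (10.5%) were higher and 6 (31.6%) lower, against 14.8% and 11.2%. Their median log2 ratio was -0.42, -0.76 and -0.17, and that of all genes -0.16, -0.13 and 0.07. RGS2, a G protein signalling regulator, had 386 CPM in H460, 111 in mdR-H460 and 45.3 in ldR-H460. NR4A3, an orphan nuclear receptor gene, had 10.6, 1.70 and 1.505 CPM, and the EGFR ligand gene AREG 49.8, 32.7 and 3.94. GEM, a small GTP-binding protein gene, had 0.876, 1.46 and 0.0827 CPM, the last from 5 UMIs. Of the factors themselves, the kinase gene SIK2, whose product restrains CREB coactivators, had 3.64, 6.74 and 11.1 CPM and the coactivator gene CREBBP 11.5, 5.69 and 7.82. Cluster 6, led by stress genes, held 69 H460 and 163 mdR-H460 cells. Without it, 18 targets were measured, and 2 were higher and 10 lower in mdR-H460 against H460. In ldR-H460 3 were higher and 7 lower against H460, and 5 and 4 against mdR-H460. The median log2 ratio of the targets became -0.65, -0.38 and 0.16, against -0.18, -0.12 and 0.09 for all genes. Shares of all genes were not counted without cluster 6.

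**Figure D5:**
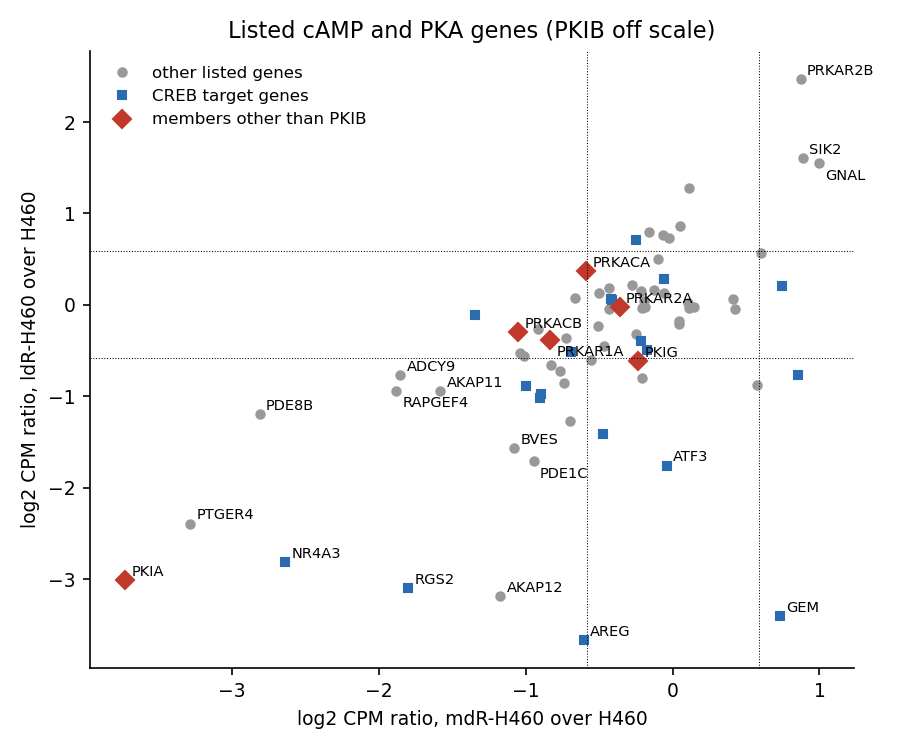
Log2 CPM ratio to H460 in mdR-H460 (horizontal axis) and ldR-H460 (vertical axis) of the listed cAMP and kinase genes that reached 1 CPM, with dotted lines at 1.5-fold. Both axes share the H460 library, PKIB lies off the scale, and PKIA lies near PTGER4 and NR4A3 at the lower left.

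The genes nearest to PKIB in pattern were listed as a description. Likeness was the distance between the log2 ratios of mdR-H460 and of ldR-H460 to H460, over 6640 genes that reached 10 CPM in a library, so it rests on 3 libraries. The nearest were DSP, a desmosomal plaque gene, at a distance of 2.70, and HPD, an enzyme gene of tyrosine breakdown, at 2.81. DSP had 0.212 CPM in H460, 12.98 in mdR-H460 and 7.21 in ldR-H460, and HPD 0.483, 17.2 and 26.9. FAM162B at 3.76, RP11-149I23.3 at 4.12 and FGA, a fibrinogen chain gene, at 5.03 followed. Each had a smaller ratio to H460 than PKIB in both derivatives. PKIB was chosen for its high ratio, which ranked 1 of 6402 and 2 of 6556, so few genes could lie near it. Its ratios rest on 10 UMIs in H460, with intervals of 103 to 397 and 82.1 to 316, so the distances are uncertain.

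The 3 counted genes nearest to PKIB had ratios to H460 between 0.522 and 0.917 in the derivatives. Within 1 Mb the annotation has 26 genes, of which 6 are protein-coding and 4 were in the tables. SERINC1, which starts at the other end of the sequence printed above, had 634, 419 and 531 UMIs, a level of 9.58, 6.29 and 8.78 CPM, and was 1.52-fold (1.34 to 1.73) lower in mdR-H460 than in H460. HSF2, a heat shock transcription factor gene, had 377, 320 and 305 UMIs, and SMPDL3A, a phosphodiesterase-like gene, 65, 42 and 31. TRDN, encoding triadin, had 0, 14 and 29 UMIs and was at least 4.64-fold higher in mdR-H460 and at least 10.6-fold higher in ldR-H460 than a floor of 3 UMIs in H460. FABP7 and CLVS2 were in none of the tables and counted as 0.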

How the data were processed

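Single-cell 3' libraries (Chromium, version 2 chemistry, HiSeq 2500) were made by the authors, per the labels' protocols. The submitters' processing notes list Cell Ranger 3.0.2, Seurat 3.0 and GRCh38, with no role for each. The deposited tables hold whole-number UMI counts per symbol and cell after the authors' quality filtering, per the series design text. The annotation release and use of strand are not given in the sources used here. All deposited cells were kept, no doublet caller was run, and a symbol a table does not list counted as 0. The members and gene lists were chosen with earlier results of these data known.

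UMIs were summed per library and divided by its total to give CPM. Sums have exact Poisson intervals, shares Clopper-Pearson intervals and ratios intervals from exact binomial limits, at 95%. With 1 library per group no p-value was computed. Only a count of 0 was replaced by the floor of 3 UMIs, and counts of 1 to 3 kept their ratio with its interval, which departs from the design written at the start. Named genes are the 7 members, up to 4 genes per list that were measured and at least 2-fold apart in any pair, the 8 highest and 4 lowest correlations, the 5 genes nearest in pattern, genes within 1 Mb and up to 3 leading genes of a cluster. PRKX, PRKAR1B, VGF and the genes shared by the 100 highest or lowest correlations were named after their values were seen. Genes with UMIs in at least 10 cells, scaled to 10000 per cell, entered the clustering, and 2000 variable genes without the members, 30 principal components, 15 neighbours and Leiden resolution 0.5 gave the clusters, without batch correction. Phases were called on cells thinned to 5000 UMIs.

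Python 3.11.15, numpy 2.4.6, scipy 1.17.1, scanpy 1.11.5, leidenalg 0.10.2, R 4.3.3, edgeR 4.0.16 (TMM factors) and DESeq2 1.42.0 (size factors) were used, and the steps were tested on simulated data. Alternatives covered scaling, cell filters, phase, thinning depth and the CPM minimum. Positions come from symbols matched to GENCODE 29, which may differ from the annotation used by the submitters.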

Additional observations from a re-analysis of the deposited data

Results flagged for a closer look

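Some genes lay on opposite sides of H460 in the derivatives, and the difference between the derivatives was not tested for want of replicates. Of the 7 members, PRKACA did so with counting intervals that exclude 1, at 0.666 of H460 in mdR-H460 and 1.29 in ldR-H460. Of the other listed genes, GEM and VGF were at least 1.5-fold apart from H460 in both derivatives and in opposite directions. GEM, a CREB target gene, was at 1.66 in mdR-H460 and 0.0944 in ldR-H460. VGF, a neuropeptide precursor gene of the same list, was at 1.81 in mdR-H460 and 0.590 in ldR-H460, with 7.80 CPM in H460, 14.1 in mdR-H460 and 4.60 in ldR-H460. Smaller opposite ratios with intervals that exclude 1 also belonged to VIPR2, at 1.49 and 0.547, and PRKX, at 0.742 and 1.14, among the genes named above. Each rests on 1 library per group.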

How the results depend on the processing

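The PKIB ratio to H460 kept its direction under all alternatives run and ranged from 189 to 273 in mdR-H460 and from 150 to 222 in ldR-H460, where the 10 PKIB UMIs of H460 limit the precision. The ratio of ldR-H460 to mdR-H460, 0.797, was 0.729 with equal weight per cell and 0.627 in cells called G1. Of the alternative ratios of the other members, 133 stayed within the counting interval of the main ratio. Another 27 fell outside it, some nearer to 1, some further from 1, and some across 1 where the main interval included 1. The remaining 1, PRKACB in ldR-H460 against H460, reversed to 1.20 in cells called G1. The cause was not tested. A minimum of 10 CPM left 43 of the listed genes. Of these, 4 were higher and 17 lower in mdR-H460 against H460, and 4 and 14 in ldR-H460 against H460. In ldR-H460 against mdR-H460 8 were higher. In that last pair 19 of 75 listed genes were lower in cells called G1, and 17 of the listed genes without a minimum. CREB targets higher in ldR-H460 numbered 3 of 18 against H460 without cluster 6. Against mdR-H460 they numbered 4 of 19 in cells called G1 and 5 of 18 without cluster 6, with 10 lower in cells called G1. Shares of all genes were not counted at these settings. Leaving out cluster 6 or the members was chosen after seeing the data. Shares of cells with a PKIB UMI follow the depth they are read at, 6.14% and 5.08% in mdR-H460 and ldR-H460 at 2500 UMIs, 19.3% and 16.3% at 8000, and 25.7% and 23.1% without thinning, where H460 had 0.221%. The largest correlation with PKIB was 0.134 in mdR-H460 and 0.137 in ldR-H460 over all cells scaled to 10000 UMIs, and 0.111 and 0.168 in cells called G1. No paired analysis was possible because each group has 1 library.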
